A study of Mus musculus with 32 samples.

Results

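Of 41388 genes counted in primary mouse chondrocytes, 44 had a symbol of the form Col, a number, a and a number, and 38 of these lie outside the cartilage core (Col2a1, Col9a1, Col9a2, Col9a3, Col10a1 and Col11a1). The rule that selects the 38 genes uses the symbol alone. They comprise 9 fibril-forming chains (Col1a1, Col1a2, Col3a1, Col5a1, Col5a2, Col5a3, Col11a2, Col24a1, Col27a1), the basement membrane chains Col4a1 to Col4a6, the beaded-filament chains Col6a1 to Col6a6, the fibril-associated chains Col12a1, Col14a1, Col16a1, Col19a1, Col20a1 and Col22a1, the short chains Col8a1 and Col8a2, the multiplexins Col15a1 and Col18a1, the transmembrane chains Col13a1, Col17a1, Col23a1 and Col25a1, the anchoring-fibril chain Col7a1, and Col26a1 and Col28a1. Together they held between 0.781% and 2.30% of the counts of a library.

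RNA was sequenced from chondrocytes of the sternum and ribs of C57BL/6 pups at postnatal days 1 to 3, used without passaging. The 32 libraries make 16 conditions of 2 libraries. Wild-type cells had no virus. Their 4 conditions were no addition (untreated), IL-1β at 10 ng/mL, the lactate dehydrogenase inhibitor FX11 at 40 µM, and the combination of IL-1β and FX11. Cells were also taken from mice in which loxP sites flank part of Ldha, Nampt or Nfkbiz (Ldha f/f, Nampt f/f, Nfkbiz f/f). They were transduced with adenovirus carrying eGFP alone (GFP) or Cre with eGFP (Cre), and each virus was followed by 24 h in which IL-1β was either added or left out. Ldha encodes a lactate dehydrogenase subunit, Nampt the rate-limiting enzyme of NAD+ salvage, and Nfkbiz the nuclear NF-κB cofactor IκBζ. Only floxed cells received Cre, so that effects of the Cre virus and of the deletion cannot be told apart. The labels name no separate animals or cultures for the 2 libraries of a condition, and p-values therefore measure the spread between these libraries, which may be technical.

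Collagens are secreted proteins whose chains wind around each other into a rod-like helix, and the genes differ in what that rod builds. Fibrillar chains pack into fibrils, and in cartilage Col11a2 chains co-assemble with type II collagen, while type I and type III fibrils typify bone, skin, tendon and dedifferentiated chondrocytes. Type IV chains form the sheet-like network of basement membranes, to which the multiplexins and type VII collagen attach. Type VI collagen forms beaded filaments and is the collagen of the pericellular matrix around each chondrocyte. IL-1β, an inflammatory cytokine, is known to shift chondrocytes from making matrix to degrading it.

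Library totals ranged from 15830658 to 39959888 counts with a median of 25363482. Within a treatment, each targeted gene was lower in the Cre libraries of its line than in the GFP libraries, without overlap. Ldha was at 937 and 876 CPM (counts scaled to the library total) in Ldha f/f GFP libraries and at 120 and 111 in Cre libraries, Nampt was at 60.1 and 54.7 against 6.77 and 6.80 in Nampt f/f cells, and Nfkbiz with IL-1β was at 233 and 228 against 29.1 and 32 in Nfkbiz f/f cells. The chondrocyte markers Acan, Sox9, Matn1, Matn3, Hapln1, Comp, Cnmd, Col2a1 and Col9a1 summed to between 12646 and 86722 CPM. Markers of other cell types summed to less. Fibroblast and perichondrium markers summed to 552 to 1468 CPM, and pericyte and smooth muscle markers to 405 to 1357 CPM. The sums were 44.4 to 181 CPM for osteoblast, 12.6 to 222 CPM for macrophage and 1.51 to 119 CPM for skeletal muscle markers. Endothelial markers summed to 4.73 to 29.6 CPM and epithelial markers to 0.449 to 21.3 CPM.

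A pair of wild-type libraries of set 2, the set of 20 libraries with the second style of label, went against their labels. Mmp3, a matrix protease gene that IL-1β induces, was at 0.79 CPM in the wild-type library labelled IL-1β and at 2033 CPM in the library labelled FX11, where the untreated library of that set had 0.805 CPM. In set 1 the corresponding Mmp3 values were 9293 CPM with IL-1β, 1.21 CPM with FX11 and 1.08 CPM untreated. No label was changed. These libraries enter no main comparison of the floxed lines, from which the responses to IL-1β described first come. The library labelled IL-1β enters an alternative of the pooled comparison, in which wild-type libraries were added. Both libraries enter the levels and ratios over all 32 libraries. There they give the highest Col5a1 level, the highest ratio of Col8a2 to Col8a1 and the lowest ratio of Col5a2 to Col3a1.

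Over all 32 libraries a small number of chains made up most of the expression of the 38 genes. Levels between genes are compared per kilobase of exon (RPKM), and the mean over libraries is followed by the lowest and highest library. Col6a1, an α chain of type VI collagen, was highest with a mean of 421 RPKM (288 to 622). Col11a2, the chain that pairs with type II collagen in cartilage fibrils, followed at 396 RPKM (133 to 845), and Col1a1, the main chain of type I collagen, at 336 RPKM (52.3 to 846). The ranges of these 3 genes overlapped. Col6a2 had 160 RPKM (114 to 231) and Col6a3 103 RPKM (48.9 to 164), and Col6a1 and Col6a2 had the narrowest ranges among the 10 highest genes, relative to their lowest library. The other type I chain, Col1a2, had 94.2 RPKM (19.6 to 246), and the type V chains Col5a1 and Col5a2 had 84.2 RPKM (49.5 to 130) and 61.4 RPKM (20.4 to 124). Col27a1, a fibrillar chain of the growth plate, had 44.9 RPKM (3.83 to 142), and Col12a1, which decorates fibril surfaces in tendon and ligament, had 34.3 RPKM (15.1 to 58.9). These 10 genes held between 81.3% and 95.7% of the summed RPKM of the 38 genes. That sum lay between 1033 and 3217 RPKM (median 1783), beside 1815 to 11272 RPKM (median 5446) for Col2a1 alone.

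**Figure D1:**
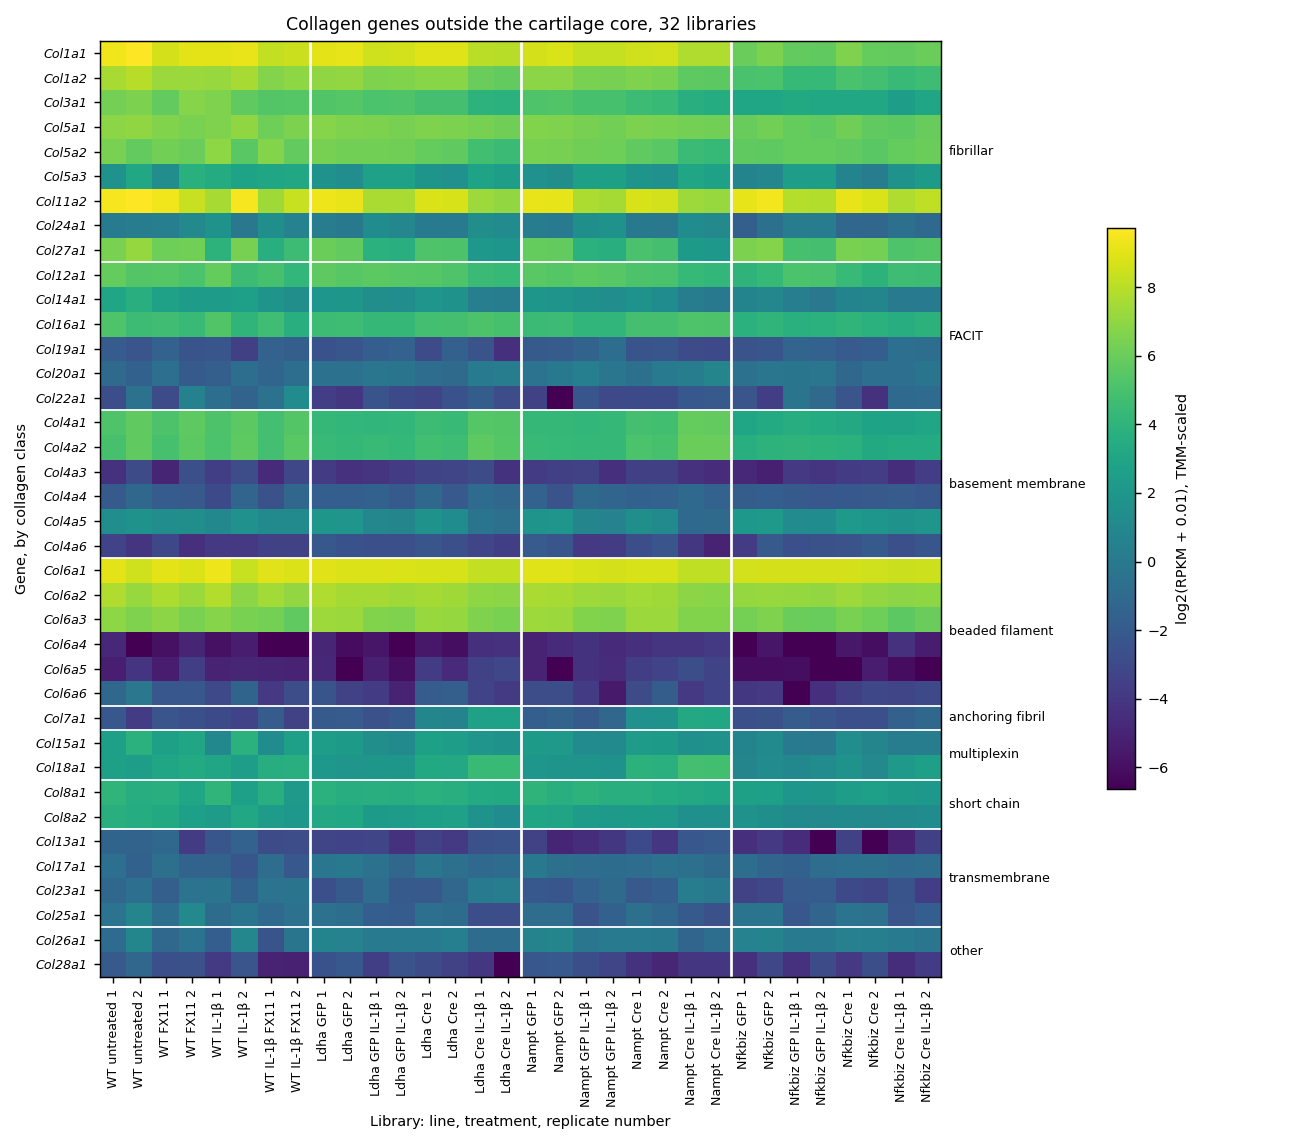
Level of each of the 38 collagen genes in each of the 32 libraries, as log2 of RPKM plus 0.01 (colour), with genes in the vertical order of collagen class and libraries ordered along the horizontal axis by line and treatment. Col6a1, Col11a2 and Col1a1 are the highest over the libraries, and Col7a1 is visibly raised in the Cre libraries of the Ldha f/f and Nampt f/f lines.

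Chains that join in the same molecule differed in how closely their levels moved. The RPKM ratio of Col6a2 to Col6a1 stayed between 0.292 and 0.426, that of Col4a2 to Col4a1 between 0.822 and 1.55, and that of Col1a2 to Col1a1 between 0.216 and 0.516. Wider ranges were seen for Col8a2 over Col8a1 (0.252 to 1.39) and for Col5a2 over Col5a1 (0.272 to 1.48). The ratio of Col1a1 to Col2a1 ranged from 0.00701, in a Nfkbiz f/f GFP library, to 0.174, in the wild-type set 1 library with IL-1β. Type I and type III collagen set the lines apart. Col1a1 was at 343 to 606 CPM in the 8 Nfkbiz f/f libraries and at 1434 to 3568 CPM in the 16 Ldha f/f and Nampt f/f libraries, and Col3a1 was at 57.2 to 97.5 CPM against 112 to 410 CPM. These ranges did not overlap. In the GFP libraries summed fibroblast and osteoblast markers were also lower in the Nfkbiz f/f line, whereas summed macrophage markers were higher. In GFP libraries without IL-1β the 10 fibroblast and perichondrium markers summed to 669 to 680 CPM in the Nfkbiz f/f line and to 1132 to 1215 CPM in the other lines, and with IL-1β to 552 to 562 CPM and 953 to 1032 CPM. The 6 osteoblast markers summed, without IL-1β, to 65.1 to 70.2 CPM and 103 to 129 CPM. Of these, Bglap went the other way, at 3.98 and 5.62 CPM against 1.16 to 2.20 CPM. For the 5 macrophage markers the sums were 20.9 to 23.1 CPM and 12.6 to 18.1 CPM. With Cre and IL-1β the fibroblast sums were 580 to 588 CPM (Nfkbiz f/f), 599 to 614 CPM (Ldha f/f) and 556 to 564 CPM (Nampt f/f). The osteoblast sums were then 51.4 to 52.9, 54.2 to 59.3 and 44.4 to 44.6 CPM. The Nfkbiz f/f line thus lay between the other lines. No test was made between lines, whose animals and preparations also differ, and the part of fibroblasts, osteoblasts and macrophages was not tested.

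Across the GFP libraries of the 3 floxed lines, 6 without and 6 with IL-1β, IL-1β lowered 15 and raised 6 of the 32 collagen genes that passed the filter on low values (edgeR, adjusted p of 0.05 or less over all genes). Among all 14283 genes tested, 56.2% were called, 28% higher and 28.3% lower. The share of collagen genes called higher lies below that background and the share called lower above it, and the median log2 fold change was -0.17 over the 32 genes and -0.01 over all genes. Called lower were 5 of 9 fibrillar chains, 2 of 3 beaded-filament chains, 2 of 3 transmembrane chains, 2 of 6 fibril-associated chains, 1 of 5 basement membrane chains, 1 of 2 multiplexins, 1 of 2 short chains and Col26a1. Called higher were 2 fibrillar, 3 fibril-associated and 1 transmembrane chain. Among them, Col22a1 and Col23a1 passed the filter only through IL-1β libraries. For 5 genes every IL-1β library lay below every library without it and for 4 genes above, where such separation was seen in 9.99% and 10.7% of all genes.

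The deepest fall was in Col27a1. Without IL-1β the 6 libraries ranged from 710 to 1337 CPM (median 800), and with IL-1β from 165 to 404 CPM (median 180). The groups did not overlap, and the decrease was 3.83-fold (log2 fold change -1.94 ± 0.07 SE, edgeR adjusted p = 5.59e-13). Col11a2 went from 3812 to 4697 CPM (median 3963) to 1269 to 1643 CPM (median 1417), again without overlap (log2 fold change -1.48 ± 0.06 SE, edgeR adjusted p = 8.96e-13). Both encode fibrillar chains of cartilage. The 9 chondrocyte markers, Col2a1 among them, were all called lower in the same libraries, where 28.3% of all genes were called lower. Their median log2 fold change was -1.42. In bulk RNA, fewer cells of a type and less RNA per cell cannot be told apart.

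Col5a3 rose most clearly. Col5a3, the less common α3 chain of type V collagen, was at 11.2 to 22.1 CPM (median 18.0) without and at 38.0 to 45.2 CPM (median 43.0) with IL-1β, with no overlap and a 2.52-fold increase (log2 fold change 1.33 ± 0.08 SE, edgeR adjusted p = 4.29e-10). Its partners differed from it, since Col5a1 was called lower (log2 fold change -0.25 ± 0.05 SE) and Col5a2 was not called (-0.02 ± 0.05 SE). Col24a1, a fibrillar chain related to Col27a1, went the other way from it, from 2.30 to 9.01 CPM (median 7.67) to 8.87 to 24.5 CPM (median 16.5; log2 fold change 1.29 ± 0.13 SE, edgeR adjusted p = 3.05e-07). Scaled over the 12 libraries alone its groups did not overlap, whereas scaled over all 32 libraries they overlapped by a small margin.

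The region before the start of Col27a1 and Col5a3 is shown because these genes had the smallest adjusted p among those lowered and those raised. The windows hold 250 bases before to 50 bases after the RefSeq start (GRCm38.p6), chr4:63215162-63215461 on the plus strand for Col27a1 and chr9:20815018-20815317 on the minus strand for Col5a3, written 5′ to 3′ in the gene's direction. In the annotation of the counts Col27a1 starts earlier, at chr4:63214004, so that its window lies inside the gene as counted. The 6 motifs were searched on both strands. They were the TATA box TATAAA, the NF-Y box CCAAT, the GC box core GGGCGG, the AP-1 motif TGANTCA (N for any base), the Smad motif CAGACA, and an NF-κB motif. None of them contains another, and capitals mark a match.
Col27a1: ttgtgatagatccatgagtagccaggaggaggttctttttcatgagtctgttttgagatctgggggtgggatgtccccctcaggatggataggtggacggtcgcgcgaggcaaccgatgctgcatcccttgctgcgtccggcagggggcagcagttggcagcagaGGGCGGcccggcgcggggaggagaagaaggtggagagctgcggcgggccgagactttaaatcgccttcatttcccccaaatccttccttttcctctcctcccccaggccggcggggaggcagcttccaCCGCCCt
Col5a3: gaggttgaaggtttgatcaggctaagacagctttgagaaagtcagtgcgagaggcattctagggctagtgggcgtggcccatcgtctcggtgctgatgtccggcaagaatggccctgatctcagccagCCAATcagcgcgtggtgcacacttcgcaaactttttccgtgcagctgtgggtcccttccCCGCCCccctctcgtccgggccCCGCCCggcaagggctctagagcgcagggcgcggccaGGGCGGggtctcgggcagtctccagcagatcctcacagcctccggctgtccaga
RefSeq windows were found for 31 of the 38 genes, 33 windows in all. GGGCGG stood in 63.6% of these and in 35.7% of 32851 windows of all genes. CCAAT stood in 33.3% against 37.4%, TATAAA in 12.1% against 13.6%, CAGACA in 24.2% against 21.0%, TGANTCA in 3.0% against 7.8% and the NF-κB motif in 3.0% against 1.6%. A match describes the letters of the window and is not a binding site shown in these cells.

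Among the other genes lowered by IL-1β, Col4a5, a type IV chain of specialised basement membranes, fell from 24.1 to 29.6 CPM to 10.2 to 16.8 CPM without overlap (log2 fold change -1.0 ± 0.07 SE). Col25a1, a transmembrane collagen known from neurons, fell from 5.32 to 7.30 CPM to 1.58 to 3.63 CPM, and Col26a1 from 8.71 to 9.95 CPM to 5.06 to 6.44 CPM, also without overlap. The multiplexin Col15a1, a basement membrane proteoglycan, had a log2 fold change of -0.99 ± 0.07 SE, and the short chain Col8a2 of -0.66 ± 0.07 SE. Their groups overlapped across the 3 lines. Further genes called lower had smaller changes. Col6a3 had a log2 fold change of -0.59 ± 0.05 SE, Col1a2 of -0.51 ± 0.05 SE, Col14a1 of -0.53 ± 0.08 SE, Col1a1 of -0.45 ± 0.07 SE, Col16a1 of -0.29 ± 0.05 SE and Col6a2 of -0.17 ± 0.05 SE. Col6a1, the highest of the 38 genes, was not called, nor were Col3a1, Col5a2, Col4a1, Col4a2, Col4a4, Col4a6, Col7a1, Col8a1, Col18a1 and Col20a1.

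Of the remaining genes called higher, 3 were scarce. Col22a1, a fibril-associated chain of the myotendinous junction, was at 0 to 1.73 CPM without and 1.02 to 7.09 CPM with IL-1β (log2 fold change 1.90 ± 0.32 SE), and the highest values were those of the Nfkbiz f/f line (7.09 and 4.58 CPM). Col19a1 went from 1.11 to 1.84 CPM to 1.96 to 4.16 CPM and the transmembrane Col23a1 from 0.487 to 1.34 CPM to 1.39 to 3.25 CPM, both without overlap. Col22a1 and Col23a1 met the filter of 5 libraries above 1 CPM only through IL-1β libraries, the group in which they are high. These calls, though part of the 6 genes counted higher, support nothing. Col12a1, which is abundant, was called higher with a log2 fold change of 0.33 ± 0.11 SE, and the transmembrane Col17a1 lower with -0.48 ± 0.17 SE. Without the libraries numbered 1, the calls of Col12a1, Col23a1 (log2 fold change 0.90, edgeR adjusted p = 0.092), Col6a2 and Col17a1 were lost, and 14 of the 21 calls were kept under every alternative. With the untreated and IL-1β wild-type libraries added 16 of the 21 were kept, and 19 when the library of set 2 labelled IL-1β was then left out.

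**Figure D2:**
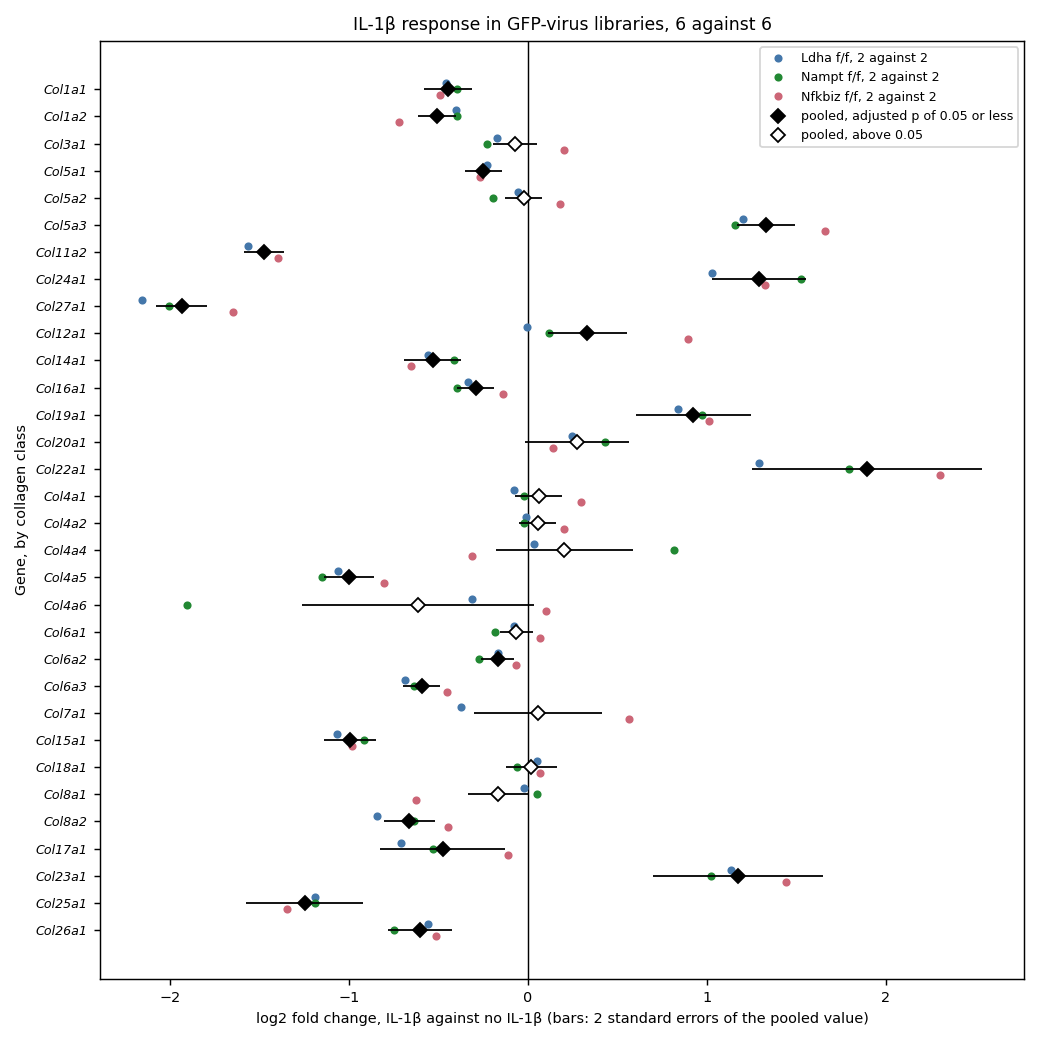
Log2 fold change of each tested collagen gene with IL-1β against without it in the GFP libraries of the 3 floxed lines (diamonds, with bars of 2 standard errors, filled where the edgeR adjusted p is 0.05 or less) and of each line on its own (coloured points), with genes by collagen class on the vertical axis. Col27a1 and Col11a2 lie farthest to the lower side, and Col22a1, Col5a3 and Col24a1 to the higher side. Of these, Col22a1 passed the filter only through IL-1β libraries.

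Line by line, IL-1β called 2 collagen genes higher and 12 lower of 36 tested in Ldha f/f GFP cells (27.9% of all genes called, 14.5% higher and 13.3% lower), and 21 genes were called with the replicate number as a block. In Nampt f/f GFP cells 4 were higher and 17 lower of 36 (35% of all genes, 17.7% and 17.3%), and in Nfkbiz f/f GFP cells 5 were higher and 10 lower of 33 (26.8% of all genes, 15.2% and 11.7%). Col27a1, Col11a2, Col15a1, Col4a5 and Col1a2 were called lower, and Col5a3 and Col24a1 higher, in each line and under every alternative run for that line. A test of whether the response differs between the lines called 6 of 34 collagen genes, where 5.87% of all genes were called. These were Col12a1 (edgeR adjusted p = 1.13e-05), Col8a1 (0.000486), Col27a1 (0.00287), Col3a1 (0.00567), Col5a2 (0.00856) and Col1a2 (0.0174). Fitted without the library set as a covariate, 1 collagen gene was called.

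Col12a1 showed the difference most plainly. In Nfkbiz f/f GFP cells it rose from 248 and 308 CPM to 523 and 498 CPM with IL-1β (log2 fold change 0.89 ± 0.15 SE), whereas it was at 783 and 675 CPM without and 754 and 670 CPM with IL-1β in Ldha f/f cells, and at 722 and 656 CPM against 752 and 683 CPM in Nampt f/f cells. The Nfkbiz f/f line thus started lower and came nearer to the others. Col8a1, a short-chain collagen, fell in Nfkbiz f/f cells from 31.6 and 30.7 CPM to 19.4 and 20.4 CPM. In Ldha f/f cells it was at 70.7 and 58.9 CPM without and 64.5 and 60.6 CPM with IL-1β, which overlap. All 8 Nfkbiz f/f libraries belong to set 2, and line and set cannot be told apart in full.

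Cre without IL-1β left the collagen genes of Nfkbiz f/f cells uncalled, and it moved fewer in the Ldha f/f than in the Nampt f/f line. In Ldha f/f cells 3 of 36 genes were higher and 5 lower (5.52% of all genes called, 3.43% higher and 2.09% lower). With the replicate number as a block 15 genes were called, and leaving out either GFP library left 5 genes, Cre replicate 1 left 4 and Cre replicate 2 left 3. Col7a1, Col18a1 and Col27a1 were called under every alternative. In Nampt f/f cells 6 of 36 genes were higher and 12 lower (14.4% of all genes, 8.3% and 6.07%), and 12 of these 18 calls were kept under every alternative. Among the 6 was Col6a5, at 0.179 and 0 CPM with GFP and 0.687 and 0.811 CPM with Cre. It passed the filter in this line only through Cre IL-1β libraries, and its call was not kept under every alternative, so it supports nothing. Of 33 genes tested in Nfkbiz f/f cells, 0 were called by edgeR (0.26% of all genes, 0.111% higher and 0.15% lower), by DESeq2 and by limma's voomWithQualityWeights, and 2 had an unadjusted p under 0.05. A test of the difference between the lines called Col7a1 (edgeR adjusted p = 1.87e-05), Col3a1 (0.00109), Col18a1 (0.00288), Col5a2 (0.00403), Col27a1 (0.00863), Col4a2 (0.0212) and Col4a1 (0.0335), 7 of 34 collagen genes where 3.69% of all genes were called. Fitted without the library set, 4 collagen genes were called.

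With IL-1β present, the calls were more in every line. In Ldha f/f cells 8 collagen genes were higher and 14 lower in Cre than in GFP cells (34% of all genes called, 16.9% higher and 17% lower), and 20 of the 22 were kept under every alternative. In Nampt f/f cells 8 were higher and 16 lower (48.4% of all genes, 25% and 23.4%), of which 22 were kept. For the Nfkbiz f/f line 3 were higher and 5 lower (17.4% of all genes, 8.16% and 9.2%), and Col18a1 alone was kept under every alternative. Without Nfkbiz GFP IL-1β replicate 1 the count in that line was 1, without GFP IL-1β replicate 2 it was 3, and without Cre IL-1β replicate 2 it was 5.

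Col7a1, which forms the anchoring fibrils that fasten the basement membrane of the epidermis to the dermis, had the largest ratio of highest library (9.37 RPKM) to lowest (0.065 RPKM) among the collagen genes detected in every library, 145-fold. In Ldha f/f cells it was at 2.40 and 2.52 CPM with GFP, at 1.58 and 2.27 CPM with GFP and IL-1β, at 18.5 and 16.4 CPM with Cre, and at 65.9 and 66.7 CPM with Cre and IL-1β. The same 4 groups of the Nampt f/f line stood at 2.92 and 3.69, 2.49 and 4.16, 31.6 and 32.4, and 95.7 and 91.1 CPM. All Cre libraries of these lines lay above all their GFP libraries, and Cre libraries with IL-1β lay above those without. The increase with Cre was 7.07-fold without and 36.4-fold with IL-1β in Ldha f/f cells (log2 fold change 2.82 ± 0.15 SE and 5.19 ± 0.15 SE, edgeR adjusted p = 7.99e-06 and 2.75e-08). It was 9.96-fold and 29.2-fold in Nampt f/f cells (3.32 ± 0.17 SE and 4.87 ± 0.17 SE, edgeR adjusted p = 5.88e-07 and 6.60e-09). The Nfkbiz f/f line had Col7a1 at 1.51 and 1.64 CPM with GFP, 1.54 and 1.55 CPM with Cre, 2.63 and 1.99 CPM with GFP and IL-1β, and 3.26 and 4.60 CPM with Cre and IL-1β, and it was not called in any comparison of that line.

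Col18a1, the multiplexin whose C-terminal fragment is endostatin, moved likewise and also in Nfkbiz f/f cells. It was at 29.7 and 26.5 CPM with GFP, 70.6 and 65.1 CPM with Cre, 28.9 and 28.3 CPM with GFP and IL-1β, and 155 and 146 CPM with Cre and IL-1β in Ldha f/f cells. The corresponding values in Nampt f/f cells were 27.5 and 24.7, 101 and 93.0, 25.2 and 22.9, and 202 and 194 CPM. The GFP groups with and without IL-1β overlapped in either line, and both Cre groups lay above them. The Cre effect was 1.26 ± 0.08 SE and 2.43 ± 0.08 SE on the log2 scale in Ldha f/f cells, and 1.89 ± 0.08 SE and 3.04 ± 0.08 SE in Nampt f/f cells, without and with IL-1β. In Nfkbiz f/f cells with IL-1β it went from 13.8 and 16.3 CPM to 31.6 and 41.8 CPM (log2 fold change 1.27 ± 0.22 SE, edgeR adjusted p = 0.00156).

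Col4a1 and Col4a2, whose chains form the common type IV network of basement membranes, moved together and in opposite directions between lines. With IL-1β, Col4a1 was at 117 and 124 CPM in Ldha f/f GFP cells and 292 and 272 CPM in Cre cells, and at 122 and 128 CPM against 395 and 371 CPM in Nampt f/f cells. With GFP in Nfkbiz f/f cells it was at 78.3 and 73.1 CPM and lower, at 47.1 and 54.1 CPM, with Cre. The log2 fold changes were 1.26 ± 0.07 SE, 1.62 ± 0.06 SE and -0.59 ± 0.14 SE. Those of Col4a2 were 1.25 ± 0.09 SE, 1.75 ± 0.06 SE and -0.58 ± 0.15 SE. The calls in Nfkbiz f/f cells (edgeR adjusted p = 0.0126 for Col4a1 and 0.0185 for Col4a2) were lost without GFP IL-1β replicate 1 (0.11 for either gene) and without GFP IL-1β replicate 2 (0.052 and 0.092), and that of Col4a2 also without Cre IL-1β replicate 2 (0.055). The difference of the Cre effect between lines was tested without IL-1β only.

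The starts of these genes are shown because Col4a1 (chr8:11198423-11312826, minus strand) and Col4a2 (chr8:11312805-11449287, plus strand) lie head to head, overlap by 22 bases in the annotation of the counts, and have start windows that share 78 bases. Col7a1 (chr9:108953586-108984875, plus strand) is shown as the gene with the largest Cre effect. The windows are chr8:11312777-11313076 for Col4a1, chr8:11312555-11312854 for Col4a2 and chr9:108953336-108953635 for Col7a1 (GRCm38.p6), each in its gene's direction and with the motif matches in capitals as above.
Col4a1: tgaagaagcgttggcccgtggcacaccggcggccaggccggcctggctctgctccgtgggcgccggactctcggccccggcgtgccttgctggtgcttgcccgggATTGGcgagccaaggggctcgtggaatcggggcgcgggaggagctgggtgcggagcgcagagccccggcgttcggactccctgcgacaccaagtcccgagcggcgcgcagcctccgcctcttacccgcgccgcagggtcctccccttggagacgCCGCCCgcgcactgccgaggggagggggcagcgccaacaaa
Col4a2: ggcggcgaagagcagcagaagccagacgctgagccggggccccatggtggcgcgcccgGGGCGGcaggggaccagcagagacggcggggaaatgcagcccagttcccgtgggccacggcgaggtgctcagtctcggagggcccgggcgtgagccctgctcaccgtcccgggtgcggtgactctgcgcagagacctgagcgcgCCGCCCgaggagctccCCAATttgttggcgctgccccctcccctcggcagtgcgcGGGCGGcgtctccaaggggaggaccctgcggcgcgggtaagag
Col7a1: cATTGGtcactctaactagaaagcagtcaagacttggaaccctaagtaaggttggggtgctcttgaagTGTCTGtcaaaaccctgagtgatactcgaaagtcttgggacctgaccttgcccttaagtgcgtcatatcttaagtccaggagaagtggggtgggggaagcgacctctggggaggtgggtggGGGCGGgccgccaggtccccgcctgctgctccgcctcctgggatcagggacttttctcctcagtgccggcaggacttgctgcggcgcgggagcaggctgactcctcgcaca
Whether counting used the strand is not given in the sources used here, and without it reads of genes that overlap on opposite strands cannot be told apart. Besides the Col4a1 and Col4a2 pair, Col18a1 overlaps Slc19a1 on the opposite strand. Col4a3, Col4a5, Col4a6, Col5a1, Col5a3, Col6a4, Col6a6, Col12a1, Col13a1, Col14a1, Col15a1, Col22a1 and Col24a1 overlap genes that carry only a predicted or clone name, and their values are uncertain to that extent.

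**Figure D3:**
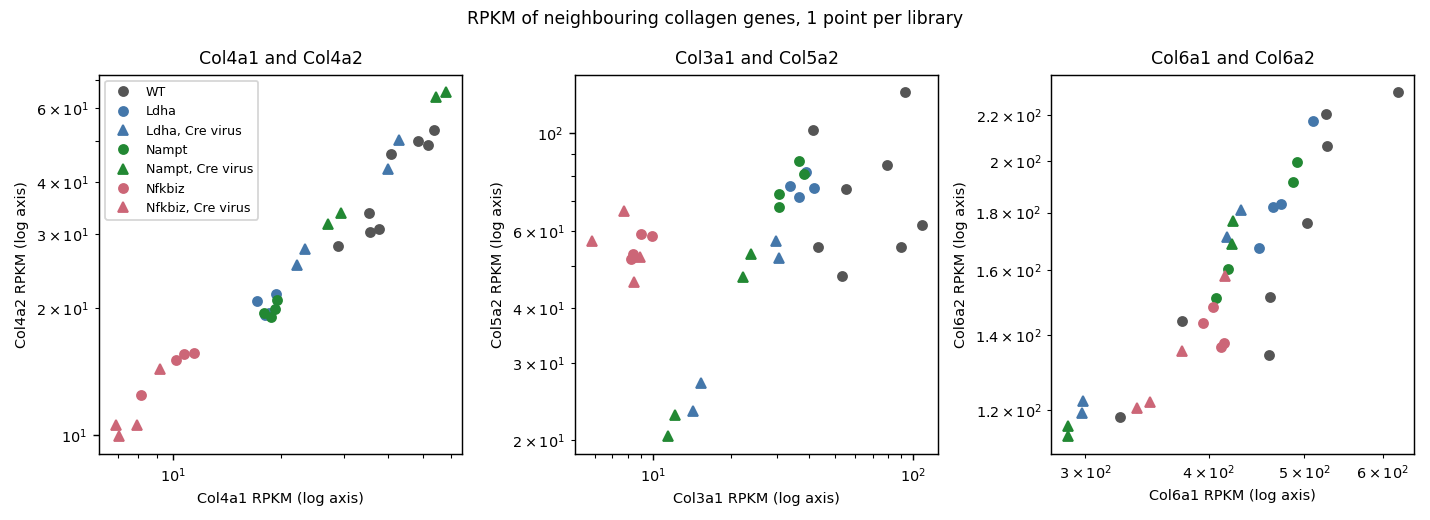
RPKM of neighbouring collagen genes (log axes), Col4a2 against Col4a1, Col5a2 against Col3a1 and Col6a2 against Col6a1, with 1 point for each of 32 libraries, coloured by line and with triangles for Cre virus. Col4a1 and Col4a2 lie along a narrow band, with RPKM ratios between 0.822 and 1.55, whereas Col5a2 over Col3a1 ranges from 0.573 to 9.77.

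Further genes rose with Cre in IL-1β-treated cells. Col16a1, a fibril-associated chain, went from 127 and 132 CPM to 237 and 209 CPM in Ldha f/f cells (log2 fold change 0.82 ± 0.08 SE) and from 118 and 116 CPM to 249 and 241 CPM in Nampt f/f cells (1.07 ± 0.06 SE). Its IL-1β response in GFP cells, a comparison that shares the GFP IL-1β libraries, was -0.34 ± 0.08 SE and -0.40 ± 0.06 SE. Col15a1 rose by 0.52 ± 0.11 SE and 0.43 ± 0.10 SE and Col23a1 by 1.48 ± 0.39 SE and 1.4 ± 0.27 SE on the log2 scale in Ldha f/f and Nampt f/f cells. The call of Col23a1 in Ldha f/f cells was lost without Cre IL-1β replicate 1 (edgeR adjusted p = 0.068), without Cre IL-1β replicate 2 (0.084) and without GFP IL-1β replicate 2 (0.083). Col6a5 in Ldha f/f cells and Col13a1 in Nampt f/f cells were also called higher, at no more than 0.972 CPM and 1.14 CPM in the Cre IL-1β libraries. Both genes passed the filter on low counts only through Cre IL-1β libraries, the group in which they are high, so that these calls, though part of the 8 genes counted higher in either line, support nothing. They were also lost when single libraries were left out, and the adjusted p reached 0.14 for Col6a5 without GFP IL-1β replicate 2 and 0.12 for Col13a1 without GFP IL-1β replicate 1.

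Of the genes lower with Cre and IL-1β, fibrillar chains were 6 of 14 in Ldha f/f cells and 7 of 16 in Nampt f/f cells, and fibril-associated chains 2 and 3. Col5a2 went with IL-1β from 728 and 688 CPM in GFP to 260 and 224 CPM in Cre cells of the Ldha f/f line, and from 697 and 653 CPM to 219 and 196 CPM in Nampt f/f cells. The fall was 2.86-fold and 3.25-fold (log2 fold change -1.52 ± 0.08 SE and -1.70 ± 0.07 SE, edgeR adjusted p = 1.04e-06 and 2.19e-08). Col5a2 in Nfkbiz f/f cells was at 559 and 565 CPM with GFP and 546 and 639 CPM with Cre, which overlap. Col3a1, the type III chain, lies 24614 bases from Col5a2 on chromosome 1 and is read from the opposite strand. It went from 330 and 357 CPM to 151 and 140 CPM in Ldha f/f cells and from 300.4 and 299 CPM to 120 and 112 CPM in Nampt f/f cells. Its log2 fold changes were -1.21 ± 0.08 SE and -1.37 ± 0.06 SE, and -0.49 ± 0.12 SE in Nfkbiz f/f cells, where the call was lost without GFP IL-1β replicate 1 (edgeR adjusted p = 0.16).

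Col27a1, already lowered by IL-1β, was lower again with Cre. In Ldha f/f cells it was at 861 and 714 CPM with GFP, 482 and 456 CPM with Cre, 181 and 165 CPM with GFP and IL-1β, and 55.0 and 49.9 CPM with both Cre and IL-1β. The same groups in Nampt f/f cells were at 739 and 710, 417 and 380, 179 and 167, and 62.7 and 55.2 CPM. The 4 groups did not overlap in either line. The Cre effect was -0.75 ± 0.09 SE and -1.69 ± 0.10 SE on the log2 scale in Ldha f/f cells, and -0.86 ± 0.07 SE and -1.55 ± 0.07 SE in Nampt f/f cells. In Nfkbiz f/f cells with IL-1β the sign was the opposite, with 404 and 390 CPM in GFP and 490 and 537 CPM in Cre cells (0.36 ± 0.11 SE, edgeR adjusted p = 0.0378), a call lost without GFP IL-1β replicate 1 (0.18), GFP IL-1β replicate 2 (0.26) or Cre IL-1β replicate 2 (0.094). Col11a2, the other cartilage fibril chain, had log2 fold changes of -0.41 ± 0.09 SE in Ldha f/f and -0.38 ± 0.07 SE in Nampt f/f cells with Cre and IL-1β.

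Other chains lowered by Cre in IL-1β-treated Ldha f/f and Nampt f/f cells were Col12a1 (log2 fold change -1.08 ± 0.09 SE and -1.30 ± 0.07 SE) and Col14a1 (-1.12 ± 0.10 SE and -1.35 ± 0.15 SE), fibril-associated chains of tendon and skin. The basement membrane chain Col4a5 was lowered while Col4a1 and Col4a2 were raised (-1.29 ± 0.15 SE and -1.76 ± 0.15 SE). Col4a5 in Nfkbiz f/f cells was called higher (0.52 ± 0.12 SE), so that its sign too was opposite to that in the other lines, though this call was lost without either GFP IL-1β library (edgeR adjusted p = 0.11 and 0.056). Changes were smaller in the type I chains and Col6a1. Col1a2 had -0.70 ± 0.07 SE and -0.78 ± 0.05 SE, Col1a1 -0.55 ± 0.07 SE and -0.50 ± 0.06 SE, and Col6a1 -0.58 ± 0.07 SE and -0.52 ± 0.05 SE. By class, 6 of 9 fibrillar chains were lower and 0 higher with Cre and IL-1β in Ldha f/f cells, and 7 lower and 0 higher in Nampt f/f cells, while both multiplexins, Col7a1, Col4a1 and Col4a2 were higher in either line. Called lower in Nfkbiz f/f cells were Col12a1 (-0.48 ± 0.15 SE) and Col24a1 (-1.05 ± 0.29 SE, from 8.97 and 8.87 CPM to 5.00 and 3.66 CPM), and both calls were lost without either GFP IL-1β library or Cre IL-1β replicate 2 (edgeR adjusted p between 0.11 and 0.22). That of Col12a1 was also lost without Cre IL-1β replicate 1 (0.055).

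**Figure D4:**
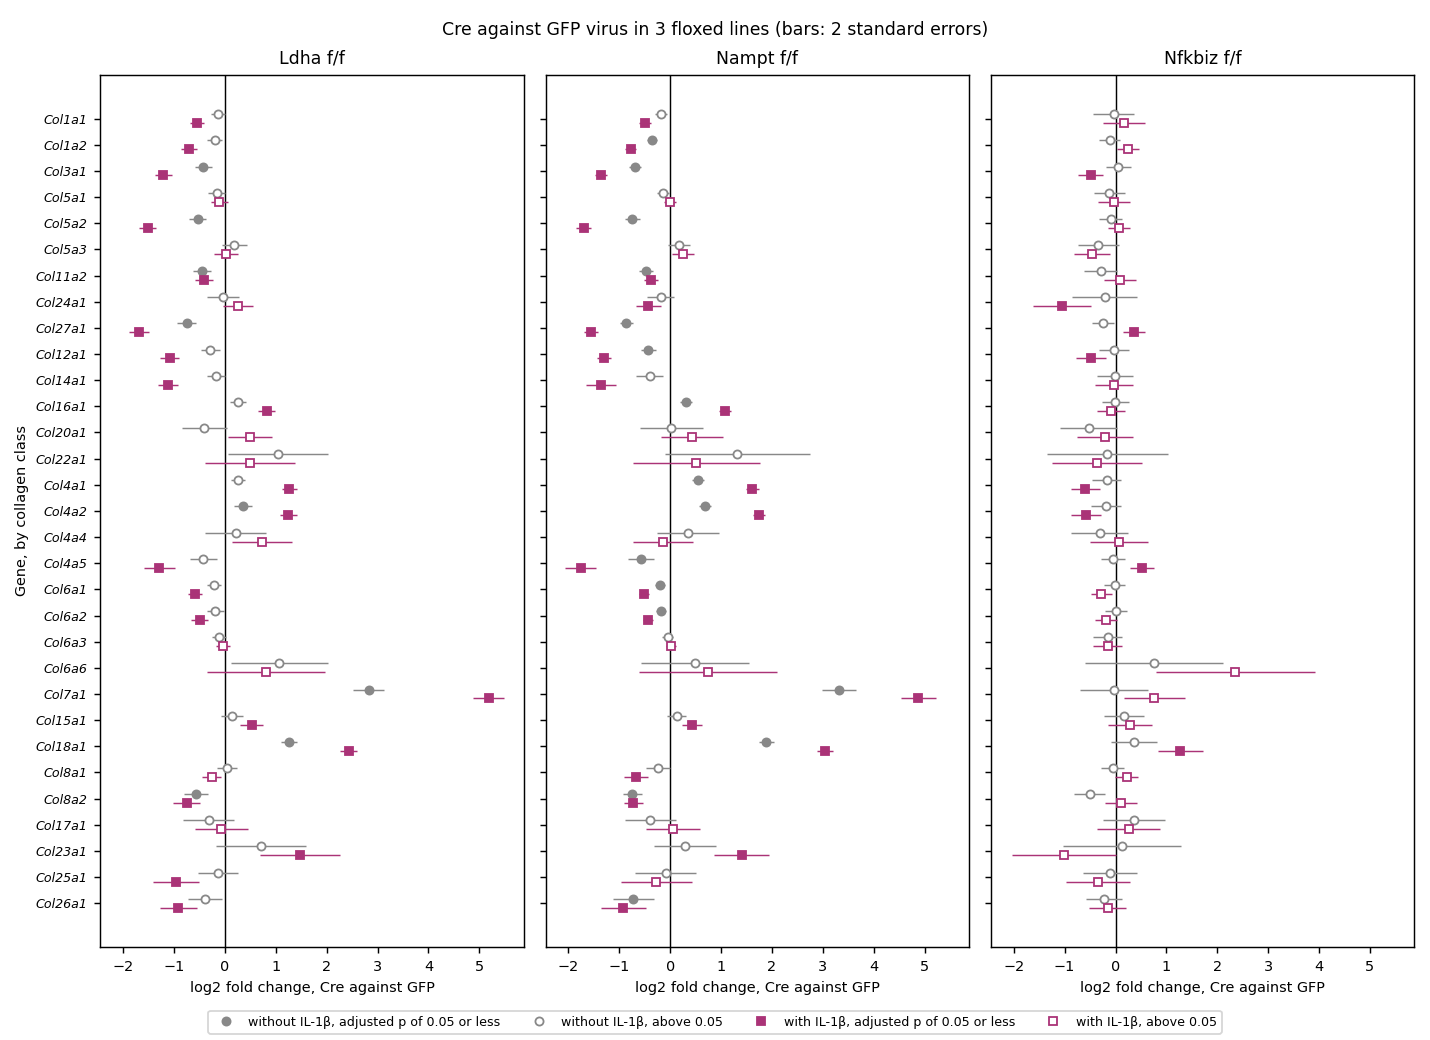
Log2 fold change of Cre against GFP virus on the horizontal axis in each floxed line, without (circles) and with IL-1β (squares), for the collagen genes above 5 CPM in at least 1 library, with bars of 2 standard errors and filled where the edgeR adjusted p is 0.05 or less. Col7a1 and Col18a1 are raised most in the Ldha f/f and Nampt f/f lines, and Col5a2, Col27a1 and Col3a1 are lowered in these lines with IL-1β.

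The dependence of the Cre effect on IL-1β was tested as an interaction. In Ldha f/f cells 14 of 36 collagen genes were called, 5 with a higher and 9 with a lower Cre effect under IL-1β (11.5% of all genes, 5.89% and 5.6%), and 9 of the 14 were kept under every alternative. Without Cre replicate 1, 9 were called. For Nampt f/f cells 5 and 11 of 36 were called (22% of all genes, 12% and 9.98%), and 13 of the 16 were kept. Of 33 tested in Nfkbiz f/f cells 1 was called (5.19% of all genes, 1.69% higher and 3.5% lower), which was Col27a1 (0.61 ± 0.15 SE, edgeR adjusted p = 0.0389). That call was lost without either GFP library, either GFP IL-1β library or Cre replicate 2, where the adjusted p lay between 0.065 and 0.21. Col7a1, Col18a1, Col4a1, Col4a2 and Col16a1 had the higher effect in both other lines, and Col5a2, Col27a1, Col3a1, Col12a1, Col14a1, Col4a5, Col1a1, Col1a2 and Col6a1 the lower. For Col7a1 the interaction was 2.36 ± 0.22 SE in Ldha f/f and 1.55 ± 0.25 SE in Nampt f/f cells on the log2 scale, and for Col5a2 it was -0.99 ± 0.12 SE and -0.96 ± 0.10 SE. The Cre contrasts with and without IL-1β share no library, but each shares its GFP libraries with the IL-1β response of its line.

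**Figure D5:**
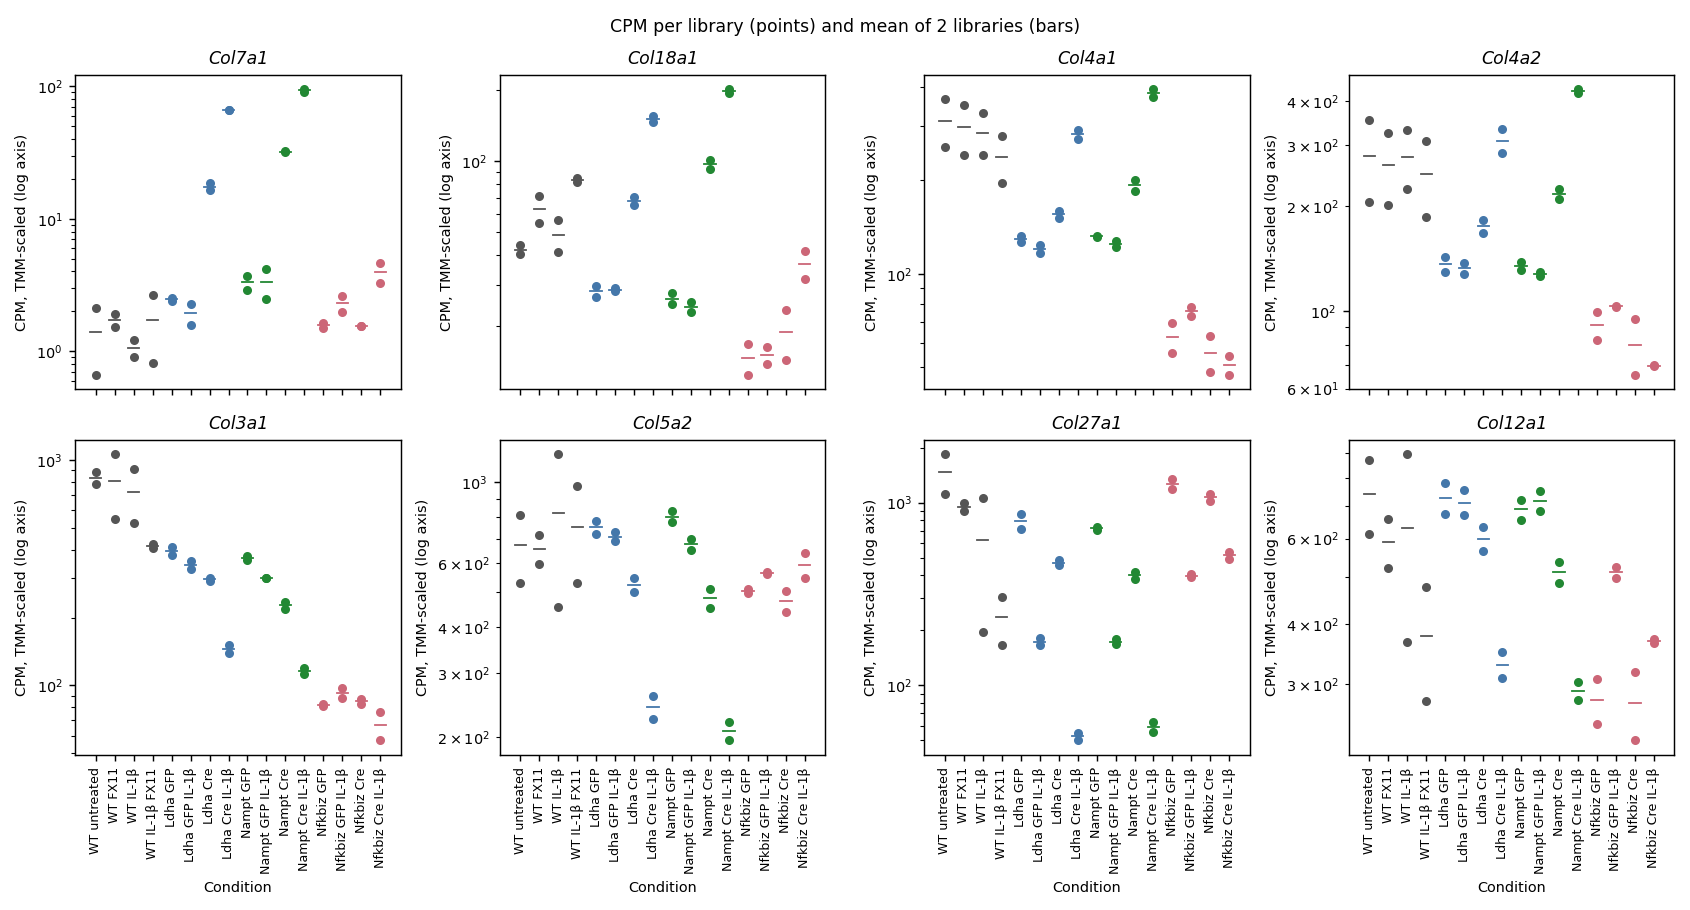
CPM (log axis) of Col7a1, Col18a1, Col4a1, Col4a2, Col3a1, Col5a2, Col27a1 and Col12a1 in the 16 conditions, with a point for each of 2 libraries and a bar at their mean. Col7a1 and Col18a1 step up with Cre and again with Cre and IL-1β in the Ldha f/f and Nampt f/f lines, and Col27a1 steps down.

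Markers of other cell types moved in the same libraries as Col7a1, Col18a1 and the type IV chains. Of the 4 epithelial markers, Epcam was at 4.61 and 3.98 CPM and at 6.96 and 8.36 CPM in the Cre IL-1β libraries of the Ldha f/f and Nampt f/f lines and at most 1.20 CPM in their GFP libraries. Cdh1 was at 5.41 and 5.93 CPM and at 7.92 and 6.97 CPM, and Krt5 at 2.79 and 2.43 CPM and at 5.59 and 5.67 CPM. All 3 were called higher with Cre and IL-1β in both lines. Krt14, a defining keratin of the basal epidermis, stayed at or below 0.326 CPM in all 32 libraries. The summed epithelial markers were 12.4 to 12.9 CPM in the Ldha f/f and 20.7 to 21.3 CPM in the Nampt f/f Cre IL-1β libraries, against 1.06 to 2.23 CPM and 1.28 to 1.78 CPM in the GFP libraries. Of the 6 endothelial markers, Kdr was at 17.8 and 13.5 CPM and at 21.8 and 19.2 CPM in the Cre IL-1β libraries. With GFP and IL-1β it was at 1.69 and 1.62 CPM and at 1.86 and 1.93 CPM. Pecam1 did not rise, at 1.16 and 0.58 CPM with Cre and IL-1β against 1.15 and 2.04 CPM with GFP and IL-1β in Ldha f/f cells. In Nampt f/f cells it was lower, at 0.859 and 0.897 CPM against 3.00 and 2.89 CPM. The summed level of the 6 endothelial markers was 21.2 to 26.5 CPM and 25.2 to 29.6 CPM, against 7.75 to 8.77 CPM and 7.60 to 10.8 CPM with GFP. Among the 10 fibroblast and perichondrium markers the Cre effect with IL-1β was called lower for 6 and higher for 1 (Ldha f/f) and lower for 7 and higher for 1 (Nampt f/f), beside the lower Col1a1, Col3a1 and Col5a2. They summed to 599 to 614 CPM with Cre against 953 to 1019 CPM with GFP in the former and to 556 to 564 CPM against 974 to 1032 CPM in the latter. Dpt stayed at or below 2.61 CPM in these 8 libraries. Of the 9 chondrocyte markers, 8 and 7 were called lower. Of all genes, 17% and 23.4% were called lower and 16.9% and 25% higher in these comparisons of the Ldha f/f and Nampt f/f lines. With IL-1β, the 5 pericyte and smooth muscle markers summed to 754 to 780 CPM with Cre against 629 to 669 CPM with GFP in Ldha f/f cells. In Nampt f/f cells the sums were 786 to 794 CPM against 576 to 581 CPM. Among these markers Cspg4 was higher and Acta2 lower with Cre in both lines. The part of these cell types in the collagen changes was not tested.

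Genes that make, process, bind and cleave collagen were followed beside the collagen genes. Of 19 genes for folding and modification in the endoplasmic reticulum, IL-1β lowered 15 and raised 2 in the pooled GFP libraries (28.3% and 28% of all genes), with Colgalt2, a galactosyltransferase of collagen hydroxylysine, at -2.33 ± 0.13 SE, the prolyl hydroxylase P3h2 at -1.11 ± 0.05 SE and the collagen chaperone Serpinh1 at -0.79 ± 0.05 SE on the log2 scale. Of 12 processing and crosslinking genes 6 were lower and 4 higher, among them Pcolce2, which enhances cleavage of the procollagen C-terminus (-1.37 ± 0.07 SE), and the crosslinking enzyme Lox (1.60 ± 0.11 SE). Of 8 collagen receptor genes 6 were lower and 1 higher, and of 6 cleavage genes 1 was lower and 3 higher, with the collagenase Mmp13 at 2.66 ± 0.17 SE. With Cre in IL-1β-treated cells, Ldha f/f cells had 8 of the 19 folding genes lower and 0 higher (17% and 16.9% of all genes). Nampt f/f cells had 6 lower and 3 higher, near or below the shares of all genes (23.4% and 25%). Lox had log2 fold changes of -1.76 ± 0.07 SE in Ldha f/f, -2.16 ± 0.06 SE in Nampt f/f and -1.10 ± 0.10 SE in Nfkbiz f/f cells, and Mmp13 of -2.21 ± 0.07 SE, -2.45 ± 0.07 SE and -1.52 ± 0.15 SE.

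In wild-type cells no collagen gene was called for IL-1β against untreated, FX11 against untreated, or IL-1β with FX11 against IL-1β (0 of 35 by edgeR, DESeq2 and voomWithQualityWeights, 0% of all genes). Unadjusted p was under 0.05 for 2, 2 and 4 genes. With the libraries of set 2 labelled IL-1β and FX11 left out, a choice made after seeing the data, again 0 were called, and 8, 0 and 3 had an unadjusted p under 0.05. The groups labelled IL-1β and FX11 then hold 1 library each, which is assumed to vary like the other groups, so these counts say little. Compared library by library with the untreated library of the same set, 18 of the 21 collagen genes called in the floxed lines had the same sign in the set 1 library with IL-1β and 20 in that with IL-1β and FX11. In set 2 the counts were 12 in the library labelled IL-1β, 16 in the library labelled FX11 and 19 in that with IL-1β and FX11. Col27a1 was at 1110 CPM untreated, 196 CPM with IL-1β, 895 CPM with FX11 and 167 CPM with IL-1β and FX11 in set 1. In set 2 it was at 1844 CPM untreated, 1053 CPM in the library labelled IL-1β, 989 CPM in that labelled FX11 and 304 CPM with IL-1β and FX11. For Col18a1 the untreated libraries had 44.0 and 40.4 CPM, and those given IL-1β plus FX11 had 81.3 and 84.7 CPM, and Col7a1 stayed between 0.659 and 2.63 CPM in all 8 libraries. Myog, a skeletal muscle marker, was at 17.6 to 27.2 CPM in the wild-type libraries of set 1 and at 0.897 to 2.23 CPM in those of set 2, and the part of muscle cells in the wild-type values was not tested.

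Col4a3, Col4a4, Col6a6 and Col20a1 were tested and never called, and Col6a4 passed the filter in no comparison, its highest library being at 0.489 CPM. Col28a1 and Col4a6 were each called in a single comparison of the Nampt f/f line, at no more than 2.01 CPM and 1.97 CPM in any library. Col28a1 was called lower with Cre without IL-1β, from 0.999 and 1.11 CPM to 0.211 and 0.116 CPM. In that line it passed the filter only through GFP replicate 2, in the group where it is high. Its call, though part of the 12 genes counted lower there, supports nothing.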

How the data were processed

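RNA of 32 libraries of mouse chondrocytes was sequenced. The members and all gene lists were chosen with earlier results of these data known. The deposited gene counts had been made by the authors with STAR and featureCounts on mouse Ensembl annotation, and the submitters' processing notes name GRCm38, STAR 2.0.4b and featureCounts 1.45. The deposited CPM and RPKM equalled, in all 32 libraries, the count over the library total and its value per kilobase, and were not tested. Symbols were matched for 40254 of 41388 identifiers.

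Counts were tested with edgeR 4.0.16 in R 4.3.3 (quasi-likelihood test, two-sided, TMM factors), leaving out 355 ribosomal RNA genes and keeping genes above 1 CPM in at least 1 library within a line or 5 libraries in the pooled comparison. P-values were Benjamini-Hochberg adjusted over all genes and called at 0.05. Within a line the 4 groups shared 1 fit without covariates or a replicate block. The comparisons over lines had line and library set as covariates. Fold changes are ± SE (n = 2 libraries a group within a line, 6 in the pooled comparison). Levels are TMM-scaled CPM, or RPKM between genes. Totals of 15830658 to 39959888 counts set the precision, and small counts were least certain.

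Values were given for the 20 smallest adjusted p of the pooled comparison, up to 8 called genes in each direction elsewhere, and the 10 highest mean RPKM. Other genes named were chosen after their values were seen. Alternatives were DESeq2 1.42.0, limma 3.58.1 voomWithQualityWeights (the test of the study), RLE factors, edgeR's filterByExpr, no filter, the replicate number as a block, each library left out, each library set alone, and wild-type libraries added. The pairing of replicate numbers was checked over 10872 genes. Deviations from the group means of same-numbered libraries correlated at 0.405 to 0.647 over the 6 pairs of groups of the Ldha f/f line. In the Nampt f/f line they correlated at 0.430 to 0.581. The number also marks the library set in both lines, so same-numbered libraries look paired there. The reported fits of both lines left this pairing out, and their standard errors, p-values and counts of calls ignore it. Only the alternative that blocks on the number used it. The procedure was tested on simulated data. Promoter windows came from the RefSeq annotation of GRCm38.p6.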

Additional observations from a re-analysis of the deposited data

Results flagged for a closer look

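In the 6 GFP libraries with IL-1β, Col26a1 stood apart at 5.06 CPM in Nampt f/f replicate 1, the lowest of them, and Col19a1 at 4.16 CPM in Nampt f/f replicate 2, the highest. Such a gap to the nearest library was looked for in 40 sets of libraries and found in these 2, where chance alone gives about 1 in 20.

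The Cre effect differed with IL-1β (edgeR interaction on the log2 scale) in Ldha f/f cells for Col7a1 (2.36), Col18a1 (1.16), Col4a1 (1.00), Col4a2 (0.89) and Col16a1 (0.57), which were relatively higher, and for Col5a2 (-0.99), Col14a1 (-0.94), Col27a1 (-0.94), Col4a5 (-0.87), Col3a1 (-0.79), Col12a1 (-0.79), Col1a2 (-0.50), Col1a1 (-0.41) and Col6a1 (-0.37). In Nampt f/f cells it was higher for Col7a1 (1.55), Col18a1 (1.15), Col4a1 (1.07), Col4a2 (1.07) and Col16a1 (0.76), and lower for Col19a1 (-1.61), Col4a5 (-1.18), Col5a2 (-0.96), Col14a1 (-0.95), Col12a1 (-0.87), Col27a1 (-0.69), Col3a1 (-0.67), Col1a2 (-0.42), Col1a1 (-0.32), Col6a1 (-0.31) and Col6a2 (-0.26). In Nfkbiz f/f cells the interaction was called for Col27a1 (0.61).

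The response to IL-1β differed between the lines (edgeR adjusted p) for Col12a1 (1.13e-05), Col8a1 (0.000486), Col27a1 (0.00287), Col3a1 (0.00567), Col5a2 (0.00856) and Col1a2 (0.0174). The Cre effect without IL-1β differed for Col7a1 (1.87e-05), Col3a1 (0.00109), Col18a1 (0.00288), Col5a2 (0.00403), Col27a1 (0.00863), Col4a2 (0.0212) and Col4a1 (0.0335).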

How the results depend on the processing

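Of 1984 single values recomputed, 1804 kept their direction and call, 180 kept their direction and lost the call, and 0 changed direction. Only collagen genes called in the main fits were recomputed. A gene that no longer passed the filter in an alternative was left out there and not counted as lost. Of 189 recomputed counts of collagen genes called, 168 lay within 1.5 times the reported count. With the replicate number as a block, Cre in Ldha f/f cells without IL-1β called 15 genes in place of 8 and IL-1β in Ldha f/f cells 21 in place of 14, and no call of the Ldha f/f or Nampt f/f lines was lost. Leaving out 1 library gave 3 to 5 there. The Ldha f/f interaction ranged from 9 to 14, and Cre with IL-1β in Nfkbiz f/f cells from 1 to 9. The Nfkbiz f/f interaction called 1 gene, 3 without a filter on low counts, 0 with the replicate block and 0 to 3 without a library. Same-numbered Nfkbiz f/f libraries correlated at -0.304 to 0.102 (median -0.006), so the number does not mark pairs in this line. At the negative end, libraries of unlike number deviated alike, and the cause was not tested. Any such shared spread stays in the fits of this line. There the block also left Col6a3 and Col8a2 (response to IL-1β) and Col27a1 and Col12a1 (Cre with IL-1β) above the threshold. Without the library set as a covariate, and so with no replicate block, the test of the IL-1β response between lines called 1 gene in place of 6 and that of the Cre effect 4 in place of 7. The cause was not tested. The tests between lines could not be fitted without a replicate number. In wild-type cells the same-numbered libraries correlated at -0.241 to 0.724 and the block called 0 genes in each comparison. With 2 libraries a group, low genes such as Col6a5 and Col13a1 were limited by their counts.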
